A study of Schizosaccharomyces pombe with 6 samples.

Results

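The RNAs described here are the transcripts of the mitochondrial genome of fission yeast (Schizosaccharomyces pombe). They were taken as all rows of the count table whose identifier starts with SPMIT, which gave 37 of 6952 rows. Of these, 25 are tRNA genes (SPMITTRNA rows), 11 are mRNA rows (SPMIT. rows, for mRNAs and reading frames in introns) and 1 is SPMITNCRNA.01, which encodes rnpB, the RNA part of mitochondrial RNase P. Counts were above 0 in at least 1 library for 34 rows, and 28 rows passed the filter of more than 1 CPM (counts for every 1000000 counts in that library) in at least 3 libraries.

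All cells were S. pombe 972h- with the leu1-32 mutation, grown in minimal medium and sampled on day 6 of chronological ageing, when cells no longer divide. In aal1-pOE cells a plasmid carried aal1, a long non-coding RNA, behind the P41nmt1 promoter, which thiamine represses, and evc cells carried the empty vector. The 3 libraries of each group were labelled as biological replicates. The design asks which transcripts differ in these non-dividing cells when aal1 is in excess, and it is read here for the mitochondrial genome.

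Mitochondrial DNA encodes a few hydrophobic subunits of the respiratory chain and of the ATP synthase, the rRNAs of the mitochondrial ribosome and the tRNAs that this ribosome uses. The genes are transcribed into long precursors, and in the yeast and animal mitochondria studied most, tRNAs lying between mRNAs and rRNAs mark the places where the precursor is cut. RNase P removes the 5′ leader of a tRNA, RNase Z removes its 3′ trailer, and the CCA end, base modifications and the amino acid are then added by nuclear-encoded enzymes.

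The mitochondrial molecule of the RefSeq assembly ASM294v3 is 19433 bp long and carries 39 annotated genes, all on 1 strand. It holds 11 protein-coding genes, of which 3 lie inside introns of cox1 or cob. The build of the authors was not named, so the coordinates are those of ASM294v3. Symbols could be paired with SPMIT.04 (cox3, subunit 3 of cytochrome c oxidase), SPMIT.08 (rps3, a protein of the small mitochondrial ribosomal subunit), SPMIT.10 (atp9, the subunit that forms the membrane ring of ATP synthase), rnpB and 23 of the tRNA genes. The other 8 mRNA rows are given by identifier. Rows SPMIT.04, SPMIT.08 and SPMIT.10 are the fourth, the eighth and the tenth in the order of identifiers, and cox3, rps3 and atp9 are the fourth, the eighth and the tenth protein-coding genes along the reference molecule. The methionine tRNA genes of the reference share an anticodon, so SPMITTRNAMET.01 and SPMITTRNAMET.02 could not be placed. The rRNA genes were not analysed here.

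The tRNA genes that carry the main result are shown first, as RefSeq gives them, 5′ to 3′ on the plus strand of the mitochondrial molecule (MT). The anticodon is in capitals. The set is the 8 tRNA genes that passed the test, in map order, and trnE(uuc), which did not pass and lies next to rnpB. The stretches are MT:9922-9994 for trnT(ugu), MT:14494-14565 for trnW(cca), MT:14598-14671 for trnL(uag), MT:15663-15737 for trnP(ugg), MT:17168-17240 for trnV(uac), MT:17544-17615 for trnI(cau), MT:17637-17718 for trnS(uga), MT:18059-18131 for trnA(ugc) and MT:18406-18478 for trnE(uuc).
trnT(ugu): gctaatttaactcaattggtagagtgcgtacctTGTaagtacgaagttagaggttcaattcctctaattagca
trnW(cca): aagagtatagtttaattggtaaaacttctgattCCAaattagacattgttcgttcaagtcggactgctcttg
trnL(uag): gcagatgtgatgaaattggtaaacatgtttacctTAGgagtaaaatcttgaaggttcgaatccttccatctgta
trnP(ugg): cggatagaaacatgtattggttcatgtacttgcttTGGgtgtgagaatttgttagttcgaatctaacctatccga
trnV(uac): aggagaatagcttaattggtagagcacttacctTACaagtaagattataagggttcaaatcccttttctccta
trnI(cau): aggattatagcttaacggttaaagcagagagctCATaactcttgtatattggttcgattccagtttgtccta
trnS(uga): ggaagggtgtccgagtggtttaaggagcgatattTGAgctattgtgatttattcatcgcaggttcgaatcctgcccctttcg
trnA(ugc): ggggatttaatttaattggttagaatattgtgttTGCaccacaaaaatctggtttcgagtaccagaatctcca
trnE(uuc): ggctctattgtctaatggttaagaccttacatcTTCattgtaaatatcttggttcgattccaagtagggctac
In each of these the anticodon lay in a loop closed by 5 base pairs, the anticodon stem. Over the 23 matched tRNA genes the length ranged from 69 to 86 bases and the GC content from 27.5% to 47.9%.

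The libraries held between 5839863 and 13164975 counts. The aal1 row had 54 to 141 counts in the aal1-pOE libraries and 2 to 4 in evc. Replicate 2 of aal1-pOE and replicate 1 of evc stood apart from their groups, with TMM factors (the scaling for library composition) of 1.80 and 0.85 against 1.04 to 1.07 and 0.76 to 0.77 in the other libraries of their groups. Over all genes the median log2 fold change was 0.80 with library totals and 0.08 with TMM. A fold change below is aal1-pOE over evc from edgeR's quasi-likelihood test after TMM, adjusted over all 5823 genes tested, and called means an adjusted p no higher than 0.05.

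The mitochondrial genome as a whole took overlapping shares of the libraries of both groups. Its rows held 5.53%, 3.99% and 4.36% of each library in aal1-pOE replicates 1, 2 and 3 against 5.33%, 3.93% and 4.16% in evc. Nearly all of these counts lay on mRNA rows. With rnpB, the mRNA rows made up 4.59% ± 0.819 of an aal1-pOE library and 4.47% ± 0.746 of an evc library (SD, n = 3), and an exact two-sided permutation test of the mean log2 share gave p = 0.8. That comparison depended on the scaling. Per TMM-scaled library the same rows stood at 5.12%, 2.19% and 4.20% in aal1-pOE, all below the 6.26%, 5.15% and 5.39% of evc (exact permutation p = 0.1). In RNA from whole cultures, fewer mitochondria or mitochondrial DNA copies and less RNA from each cannot be told apart, nor can fewer cells of 1 state and less RNA per cell.

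Within the mitochondrial genome, tRNA genes took a larger part of the counts in every aal1-pOE library than in any evc library. For every 1000 counts on mitochondrial mRNA rows there were 3.99, 18.0 and 2.78 counts on mitochondrial tRNA genes in aal1-pOE replicates 1, 2 and 3 against 0.996, 0.979 and 0.875 in evc. The evc libraries lay close together, and each aal1-pOE library lay above all of them, with replicate 2 far above the other two. This ratio uses counts of 1 library only, so no scaling between libraries enters it. The ratio was 6.16 times higher in aal1-pOE by the mean log2 ratio, and 3.51 times higher without aal1-pOE replicate 2. The exact two-sided permutation test gave p = 0.1, the smallest that 3 against 3 libraries allow (0.15 adjusted over the 3 summed measures tested).

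**Figure D1:**
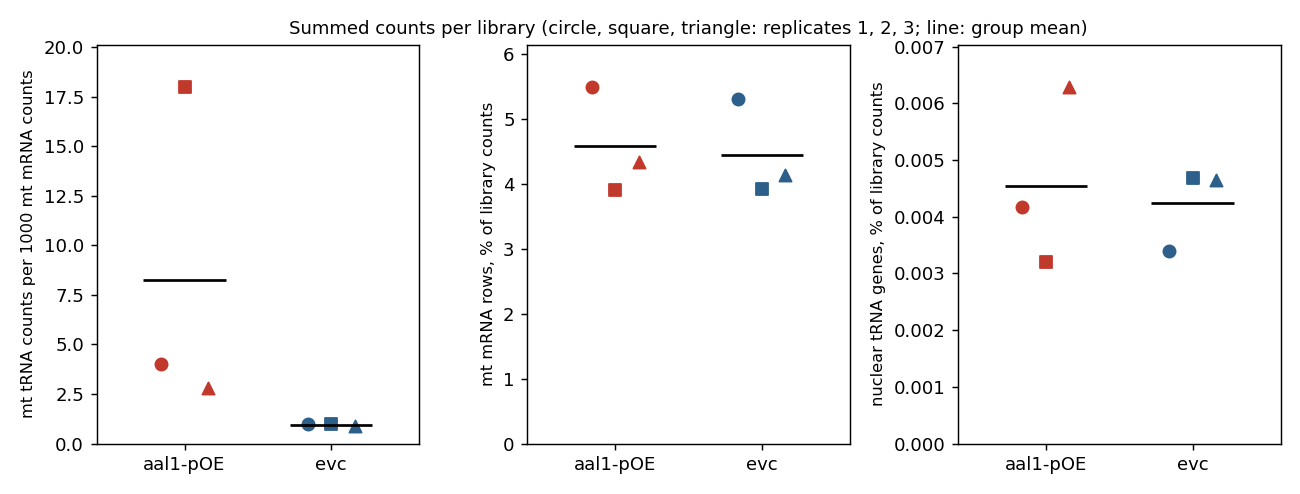
Summed counts in each of the 6 libraries for aal1-pOE (red) and evc (blue), with the group mean as a line: mitochondrial tRNA counts per 1000 mitochondrial mRNA counts (left), mitochondrial mRNA rows as a percentage of library counts (middle) and nuclear tRNA genes as a percentage of library counts (right). The tRNA-to-mRNA ratio is 2.78 to 18.0 in aal1-pOE against 0.875 to 0.996 in evc, while the other measures overlap between the groups.

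The tRNA genes of the nucleus, counted in the same way, took shares that overlapped between the groups. All 171 nuclear tRNA genes summed to 0.00417%, 0.00320% and 0.00628% of a library in aal1-pOE against 0.00340%, 0.00469% and 0.00466% in evc (exact permutation p = 1). Counted against them, mitochondrial tRNA genes had 5.26, 22.0 and 1.92 counts per nuclear tRNA count in aal1-pOE against 1.56, 0.818 and 0.777 in evc. The lowest aal1-pOE library, replicate 3, was here only a little above the highest evc library, replicate 1. This ratio was chosen after the data were seen, and its exact two-sided permutation p was 0.1 (0.175 adjusted over 7 such ratios and shares). Only 9 nuclear tRNA genes passed the filter. None was called in edgeR, DESeq2, limma-voom or the likelihood ratio test, none had an unadjusted p under 0.05 in edgeR's quasi-likelihood test, and their median log2 fold change was -0.54 against 2.49 for the 19 mitochondrial tRNA genes tested. The nuclear median became 0.01 with library totals. Without the filter 94 nuclear tRNA genes could be tested, 0 were called and 0 had an unadjusted p under 0.05 in edgeR, and their median was 0.14, with 49 values above 0 and 45 below.

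Of 25 mitochondrial tRNA genes, 19 passed the filter, and 8 of these rose, 11 were not called and 0 fell. The filter itself favoured genes that are high in aal1-pOE. Of the 19 genes, 4 had all 3 evc libraries above 1 CPM, and 2 of these 4 were called, trnS(uga) and trnA(ugc). Another 6 had no evc library above 1 CPM, and 4 of these 6 were called. Over all genes tested, 1.36% were called up and 4.64% were called down. The tRNAs of the 8 genes carry serine, alanine, isoleucine, tryptophan, proline, valine, threonine and leucine. The most counted tRNA genes, trnS(uga) and trnA(ugc), had the smallest SE, and most single genes rested on few counts: the median count of a tRNA gene in 1 library was 4 in evc and 37 in aal1-pOE. Where a gene is at 0 counts, 3 counts are taken as the limit that this allows, and such limits cover counting error only.

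The serine gene trnS(uga), SPMITTRNASER.02, was the most counted tRNA gene in every library and held between 27.5% and 42.5% of the mitochondrial tRNA counts. It had 751, 2544 and 252 counts in aal1-pOE replicates 1, 2 and 3 against 157, 81 and 75 in evc, or 85.3, 193 and 41.1 CPM against 22.5, 13.9 and 11.6 CPM. Its lowest aal1-pOE library lay above its highest evc library, as for 42.4% of all rows with a count by library totals. The fitted log2 fold change was 1.92 ± 0.38 (SE; edgeR, adjusted p = 0.0184). The alanine gene trnA(ugc), SPMITTRNAALA.01, followed, with 184, 872 and 148 counts against 49, 32 and 33, and rose by 1.85 ± 0.36 (SE; adjusted p = 0.0161, edgeR). These were the only tRNA genes that passed a filter of 10 CPM, trnA(ugc) only through its aal1-pOE libraries, and both were called there (2.48% of all genes were called up in that fit).

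The isoleucine gene trnI(cau), SPMITTRNAILE.02, stood at 7.61, 29.8 and 5.38 CPM in aal1-pOE against 1.29, 0.514 and 0.621 CPM in evc (log2 fold change 3.24 ± 0.67 SE; adjusted p = 0.0221, edgeR). The tryptophan gene trnW(cca), SPMITTRNATRP.01, stood at 10.4, 52.6 and 7.01 CPM against 1.72, 1.54 and 0.621 CPM (3.24 ± 0.69; adjusted p = 0.0260). In both genes no evc library reached the lowest aal1-pOE library, which held for 42.4% of all rows with a count by library totals. The proline gene trnP(ugg), SPMITTRNAPRO.01, had 49, 326 and 14 counts against 3, 4 and 3 (3.41 ± 0.80; adjusted p = 0.0396). The leucine gene trnL(uag), SPMITTRNALEU.02, had 31, 256 and 15 against 2, 3 and 4 (3.20 ± 0.80; adjusted p = 0.0480). The threonine gene trnT(ugu), SPMITTRNATHR.01, had 25, 106 and 8 against 2, 1 and 2 (3.09 ± 0.76; adjusted p = 0.0457).

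The valine gene trnV(uac), SPMITTRNAVAL.01, had the largest fitted change of the 8, 4.38 ± 1.05 (SE; adjusted p = 0.0414, edgeR), on the fewest control counts. It had 24, 203 and 9 counts in aal1-pOE against 2, 1 and 0 in evc. With 3 counts in all of evc, the ratio of pooled CPM was 53.9, with a 95% counting interval (exact binomial) of 18.2 to 263.

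**Figure D2:**
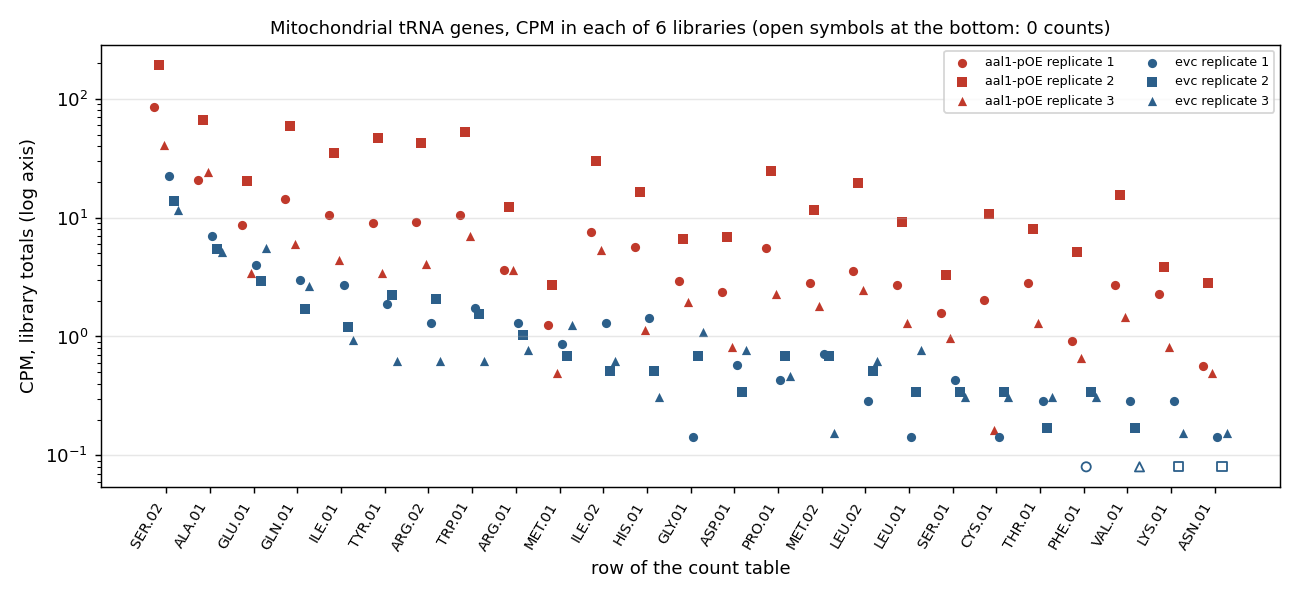
CPM from library totals (log axis) of the 25 mitochondrial tRNA genes in each library, sorted by their mean in evc; red marks are aal1-pOE and blue marks evc, and open marks at the bottom are 0 counts. The square of aal1-pOE replicate 2 is the highest mark of every gene, and the groups do not overlap in 21 of the 25 genes. By library totals, 42.4% of all rows with a count were apart with aal1-pOE higher.

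The 11 genes that were tested and not called formed a graded series. The glutamine gene trnQ(uug), SPMITTRNAGLN.01, had 127, 770 and 37 counts against 21, 10 and 17, and at 2.49 ± 0.64 (log2 fold change, SE) it just missed the threshold (adjusted p = 0.0517, edgeR). The arginine gene trnR(ucg), SPMITTRNAARG.02, had 81, 555 and 25 counts against 9, 12 and 4 (2.86 ± 0.76; adjusted p = 0.0583), and the isoleucine gene trnI(gau), SPMITTRNAILE.01, had 92, 459 and 27 against 19, 7 and 6 (2.47 ± 0.67; adjusted p = 0.0612). In these 3 genes, too, the groups did not overlap, as for 42.4% of all rows with a count that were higher by library totals. The tyrosine gene trnY(gua), SPMITTRNATYR.01, had 79, 610 and 21 counts against 13, 13 and 4 (2.68 ± 0.80; adjusted p = 0.0761).

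The remaining tested genes had smaller counts or smaller differences. The fitted log2 fold change was 2.49 ± 0.77 for SPMITTRNAMET.02, 2.49 ± 0.82 for the leucine gene trnL(uaa), 2.47 ± 0.86 for the histidine gene trnH(gug), 1.83 ± 0.57 for the arginine gene trnR(ucu) and 1.78 ± 0.73 for the glycine gene trnG(ucc), with adjusted p-values from 0.0836 to 0.159 in edgeR. In trnH(gug), with 50, 218 and 7 counts against 10, 3 and 2, aal1-pOE replicate 3 lay among the evc libraries in CPM. The glutamate gene trnE(uuc), SPMITTRNAGLU.01, and SPMITTRNAMET.01 had the smallest values. The first had 76, 267 and 21 counts against 28, 17 and 36 (0.53 ± 0.55; adjusted p = 0.535) and the second 11, 36 and 3 against 6, 4 and 8 (-0.09 ± 0.65; adjusted p = 0.931). In both, aal1-pOE replicates 1 and 2 were above all evc libraries in CPM and replicate 3 was not, and the fitted change of SPMITTRNAMET.01 was positive with library totals (0.71).

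The tRNAs of the 6 genes that failed the filter carry asparagine, aspartate, cysteine, lysine, phenylalanine and serine. The asparagine gene trnN(guu) had 5, 37 and 3 counts in aal1-pOE against 1, 0 and 1 in evc. The aspartate gene trnD(guc) had 21, 91 and 5 against 4, 2 and 5. The cysteine gene trnC(gca) had 18, 140 and 1 against 1, 2 and 2. Of the 6, trnC(gca) was the only gene whose groups overlapped by library totals, through the 1 count in aal1-pOE replicate 3. On that scale 42.4% of all rows with a count were apart with aal1-pOE higher. The lysine gene trnK(uuu) had 20, 51 and 5 counts against 2, 0 and 1. The phenylalanine gene trnF(gaa) had 8, 68 and 4 against 0, 2 and 2. The serine gene trnS(gcu), SPMITTRNASER.01, had 14, 43 and 6 against 3, 2 and 2. In a fit without the filter none of the 6 was called, with log2 fold changes from 1.65 to 3.09 and adjusted p-values from 0.0834 to 0.202 (edgeR). That fit called 8 of the 25 tRNA genes up, against 1.29% of all rows. Of these, 7 were also called with the filter, trnQ(uug) was gained (adjusted p = 0.0458) and trnT(ugu) was lost (0.0534).

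In the fit without the filter the log2 fold change was positive for 24 of the 25 genes, all but SPMITTRNAMET.01, and the size differed by library. In CPM from library totals 21 of 25 genes had all aal1-pOE libraries above all evc libraries, and after TMM 20 of 25 did. The same held for 42.4% of all rows with a count by library totals and for 16.8% after TMM. The exceptions by library totals were trnC(gca), trnE(uuc), trnH(gug) and SPMITTRNAMET.01, each through aal1-pOE replicate 3, and TMM added trnD(guc). Replicates 1 and 2 of aal1-pOE were above every evc library in all 25 genes, and replicate 3 in 21. Relative to the evc mean of each gene, the median ratio over the 25 genes was 5.88, 23.7 and 3.09 in aal1-pOE replicates 1, 2 and 3 against 1.19, 0.933 and 0.884 in evc. The same ratio per mitochondrial mRNA count was 4.81, 26.6 and 2.99 against 0.998, 1.06 and 0.938.

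The calls depended on single libraries more than the direction did. Without evc replicate 2 or evc replicate 3 0 of the tRNA genes were called in edgeR (15 and 16 of them had an unadjusted p under 0.05), at medians of 2.38 and 2.49, and among all genes 1 was called up in each of these fits. Without aal1-pOE replicate 2, the highest library, 12 tRNA genes passed the filter and 5 were called, with a median log2 fold change of 1.64, in a fit that called 4.42% of all genes up. With library totals in place of TMM 11 of 19 were called, against 8.88% of all genes called up, and scaled to mitochondrial mRNA counts, where 0.687% of all genes were, only trnS(uga) was (adjusted p = 0.0395, edgeR; 8.46e-05 to 0.104 over its alternatives). The number called also differed by tool. DESeq2 called 14 of the 19 up and the likelihood ratio test 16, where they called 6.78% and 6.82% of all genes up, and limma-voom called 0, where it called 0.326%.

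The serine gene trnS(uga) and the alanine gene trnA(ugc) led the tRNA set in both groups. Per kilobase of gene, mean CPM ranged from 1.40 for trnN(guu) to 195 for trnS(uga) in evc and from 18.2 to 1299 for the same genes in aal1-pOE. In evc, trnS(uga) was followed by trnA(ugc) at 80.5 ± 13.8 CPM per kilobase, trnE(uuc) at 57.1 ± 18.4 and trnQ(uug) at 33.6 ± 9.15 (SD, n = 3 each). The lowest evc value of trnS(uga) lay above the highest of trnA(ugc), whereas trnA(ugc) overlapped trnE(uuc), and trnE(uuc) overlapped trnQ(uug). In aal1-pOE trnA(ugc) was followed by trnQ(uug) at 360 ± 386, trnW(cca) at 325 ± 353 and trnR(ucg) at 253 ± 283, and trnE(uuc), at 148 ± 118, lay lower in the order. There the spread between libraries, 1299 ± 954 for trnS(uga) and 508 ± 346 for trnA(ugc), was larger than the gap between most neighbours.

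Pairs of genes for the same amino acid differed widely in level. The serine genes were the extreme case. For each count of trnS(gcu) there were 42 to 59.2 counts of trnS(uga) in the aal1-pOE libraries and 37.5 to 52.3 in evc. The ratio between the serine genes was thus of the same order in every library. The groups did not overlap for either gene, as for 42.4% of all rows with a count that were higher by library totals. The other pairs were closer to each other, with pooled ratios in aal1-pOE and evc of 1.97 and 1.125 for trnL(uag) over trnL(uaa), 3.05 and 1.25 for trnR(ucg) over trnR(ucu), and 0.851 and 0.50 for trnI(cau) over trnI(gau). The methionine rows differed most between the groups, with 189 counts of SPMITTRNAMET.02 to 50 of SPMITTRNAMET.01 in aal1-pOE against 10 to 18 in evc. Ratios of evc rest on 7 to 32 counts per gene, apart from trnS(uga), and were not tested.

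Along the molecule the tRNA genes lie in runs between the larger genes, and the level of the runs ranged from 2.68 to 80.5 CPM per kilobase of tRNA gene in evc and from 24.5 to 508 in aal1-pOE, lowest near the rRNA genes and highest at trnA(ugc) in both groups. The 3 tRNA genes between the rRNA genes rnl and rns (trnK, trnS(gcu) and trnN) were the lowest, with 39, 131 and 14 counts together in aal1-pOE against 6, 2 and 4 in evc. The 2 between cox3 and cob (trnR(ucu) and trnT) had 57, 269 and 30 against 11, 7 and 7. The 6 matched genes between cob and atp6 had 202, 1316 and 87 against 20, 22 and 27. Within that run trnW(cca), which starts 15 bases after trnL(uaa), had 92, 693 and 43 counts in aal1-pOE where trnL(uaa) had 24, 121 and 8. The 3 between atp6 and rps3 (trnH, trnP and trnQ) had 226, 1314 and 58 against 34, 17 and 22. The 6 between atp8 and atp9, which end with trnS(uga), had 1020, 4444 and 341 against 191, 112 and 89. Many of these genes lie close together: trnD(guc) and trnG(ucc) are 5 bases apart, and trnN(guu) abuts rns. By the default of HTSeq, the counting program, reads that overlap more than 1 gene are counted for no gene. How far this affects the levels of neighbours and runs was not tested.

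The ratio of mean CPM, aal1-pOE over evc, was 9.14 for the run between rnl and rns, 8.24 between cox3 and cob, 12.7 between cob and atp6, 12.0 between atp6 and rps3, 10.2 for trnI(gau) between rps3 and atp8, and 8.43 between atp8 and atp9. It was 6.31 for trnA(ugc) and 2.58 for trnE(uuc), the last matched tRNA genes of the map. In every run the lowest aal1-pOE library was above the highest evc library, except for trnE(uuc), where 42.4% of all rows with a count were apart in this way by library totals. These ratios were not tested against each other.

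**Figure D3:**
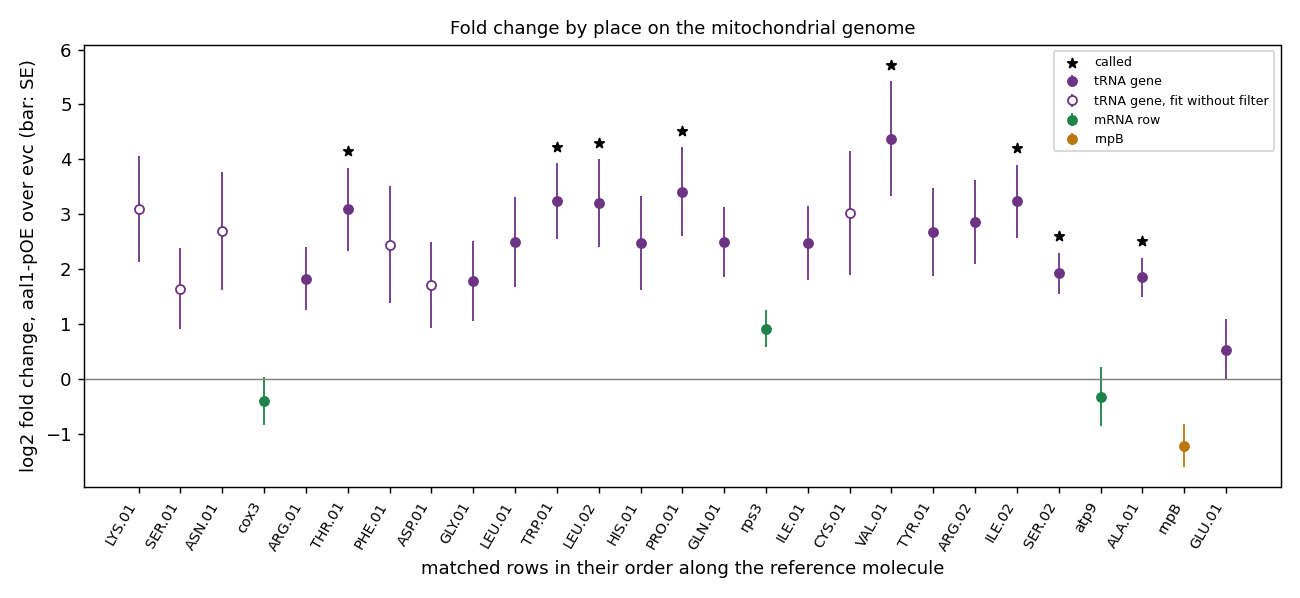
Log2 fold change (aal1-pOE over evc, bars: SE) of the matched rows in their order along the reference molecule, with filled marks from the edgeR fit, open marks from the fit without a filter for the 6 tRNA genes that failed it, and stars for called genes. The tRNA genes lie between 0.53 and 4.38, and rps3 (0.92) lies within that range, above trnE(uuc). After TMM scaling cox3 (-0.39), atp9 (-0.32) and rnpB (-1.21) lie below 0. With library totals cox3 and atp9 were above 0 (0.20 and 0.23).

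The end of the map puts RNAs with different values next to each other. The genes trnA(ugc), rnpB and trnE(uuc) abut with 0 bases between them, and trnA(ugc) starts 26 bases after atp9. While trnA(ugc) rose by 1.85 on the log2 scale and trnE(uuc) was at 0.53, rnpB was at -1.21 ± 0.39 (SE; adjusted p = 0.0902, edgeR) and was not called. The RNA of RNase P had 1137, 940 and 483 counts in aal1-pOE against 847, 716 and 1203 in evc, or 129, 71.4 and 78.8 CPM against 121, 123 and 187 CPM. Replicate 1 of aal1-pOE lay among the evc libraries in CPM, and after TMM the groups did not overlap, as for 17.3% of all rows with a count that were lower. Relative to 1000 mitochondrial mRNA counts, rnpB stood at 2.35, 1.82 and 1.82 in aal1-pOE against 2.29, 3.13 and 4.52 in evc (exact permutation p = 0.2). It was called lower by DESeq2 (adjusted p = 0.0319) and by edgeR's likelihood ratio test (0.0286). With aal1-pOE replicate 2 and evc replicate 1 both left out it was also called lower (-1.03; adjusted p = 0.00731, edgeR). Those fits called 511 of 5823, 472 of 5823 and 1131 of 5604 genes down, against 270 of 5823 in the quasi-likelihood test. Among the alternatives for rnpB the adjusted p ranged from 0.00731 to 0.311. HTSeq was run with no option set for reads that overlap more than 1 gene, and by its default such reads are counted for no gene. How many read pairs span these neighbours was not tested.

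Of the mRNA rows, in contrast, none was called, and their levels differed widely. In every library 3 rows had 0 counts, and the mean in evc of the others ranged from 19.4 CPM for SPMIT.09 to 29273 CPM for SPMIT.01. In edgeR 0 of the 8 rows with counts and rnpB were called in either direction. At an unadjusted p under 0.05, 1 row was higher (rps3) and 1 was lower (rnpB). DESeq2 and the likelihood ratio test each called 1 down, rnpB, and limma-voom called 0. Over all 5823 genes these fits called 511, 472 and 235 down. With aal1-pOE replicate 2 and evc replicate 1 both left out, 3 rows were called down, rnpB, SPMIT.01 and SPMIT.09. That fit called 1131 of 5604 genes down. The median log2 fold change of the 9 rows was -0.34, and it was 0.22 with library totals.

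In the order of identifiers, SPMIT.01 had by far the most counts, 32097, 23971 and 25567 CPM in aal1-pOE against 34896, 25820 and 27102 CPM in evc (log2 fold change -0.70 ± 0.69 SE; adjusted p = 0.513, edgeR). Its groups overlapped by library totals and not after TMM, as for 17.3% of all rows with a count that were lower. Rows SPMIT.02, SPMIT.03 and SPMIT.06 had 0 counts in every library. For counting error alone, this allows up to 0.514 CPM in the smallest library. In the reference, the second, the third and the sixth protein-coding genes are those inside introns of cox1 and cob. Whether these rows are the same genes was not established. If they are, their reads overlap cox1 or cob as well, and by HTSeq's default such reads are counted for no gene. The 0 counts would then set no limit on their level. The cox3 row had 3332, 2183 and 1944 CPM against 2617, 1707 and 2177 CPM, with overlapping groups (log2 fold change -0.39 ± 0.44 SE; adjusted p = 0.562, edgeR). The next row, SPMIT.05, stood at 3181, 3215 and 2156 CPM against 2154, 1758 and 1884 CPM, so that the groups were apart by 2 CPM with library totals and overlapped after TMM (-0.09 ± 0.37; adjusted p = 0.883).

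The rows SPMIT.07 and SPMIT.08 were less abundant and were higher in every aal1-pOE library than in any evc library by library totals, as SPMIT.05 was. These are 3 of the 9 rows with counts, beside 42.4% of all rows with a count. SPMIT.07 had 370, 342 and 249 CPM in aal1-pOE against 152, 85.6 and 207 CPM in evc, with a fitted value of 0.47 ± 0.35 on the log2 scale (SE; edgeR, adjusted p = 0.390). The ribosomal protein gene rps3 (SPMIT.08) had 93.8, 213 and 58.6 CPM against 38.4, 22.9 and 49.2 CPM. Its lowest aal1-pOE library, replicate 3, was just above its highest evc library, and the fitted log2 fold change was 0.92 ± 0.34 (SE; edgeR, adjusted p = 0.127). With library totals the values were 1.11 for SPMIT.07 and 1.72 for rps3, with adjusted p-values of 0.0528 and 0.0520. Both were called up only when scaled to mitochondrial mRNA counts without aal1-pOE replicate 2, a setting chosen after the data were seen. That fit called 877 of 5699 genes up.

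The least counted mRNA row was SPMIT.09, with 79, 517 and 108 counts in aal1-pOE against 107, 124 and 140 in evc (log2 fold change -0.64 ± 0.39 SE; adjusted p = 0.307, edgeR). Its 517 counts in aal1-pOE replicate 2 were the highest and its 79 in replicate 1 the lowest value in CPM, so the aal1-pOE libraries enclosed those of evc. The ATP synthase gene atp9 (SPMIT.10) had 7483, 4319 and 7399 CPM against 6066, 5472 and 4863 CPM (-0.32 ± 0.53; adjusted p = 0.707), and SPMIT.11 had 8353, 4878 and 6005 CPM against 7139, 4296 and 5038 CPM (-0.34 ± 0.53; adjusted p = 0.685). In both the groups overlapped.

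**Figure D4:**
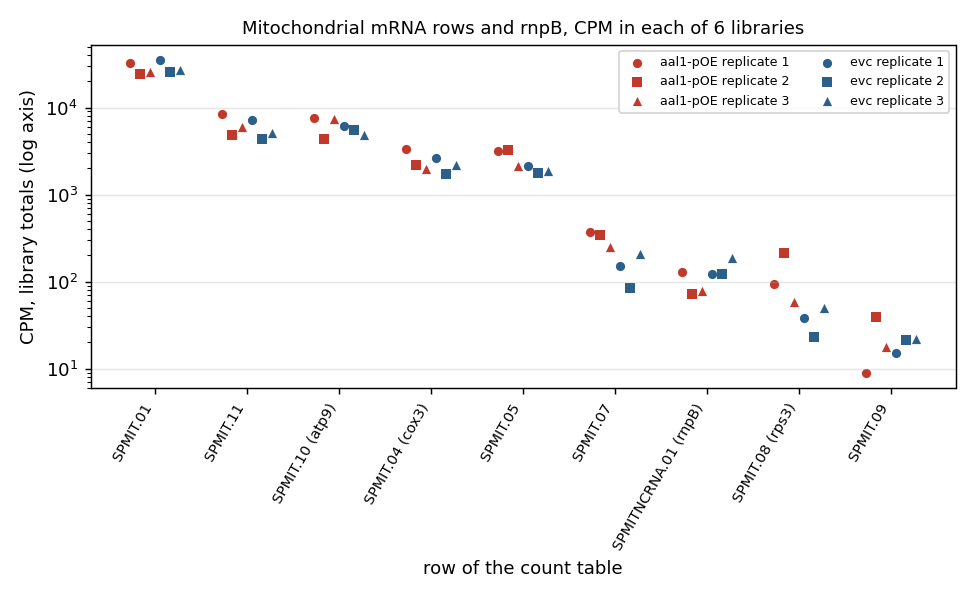
CPM from library totals (log axis) of the 8 mitochondrial mRNA rows with counts and of rnpB in each library, sorted by the mean in evc; red marks are aal1-pOE and blue marks evc. The groups overlap for SPMIT.01, SPMIT.11, atp9, cox3, rnpB and SPMIT.09, and do not for SPMIT.05, SPMIT.07 and rps3. On this scale 42.4% of all rows with a count were apart with aal1-pOE higher.

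Within the mRNA counts, the share of the first row was lower in aal1-pOE. SPMIT.01 made up 58.4%, 61.2% and 58.9% of the mitochondrial mRNA counts in aal1-pOE against 65.7%, 65.9% and 65.6% in evc. The shares of SPMIT.05 (6.32% ± 1.68 against 4.37% ± 0.270), SPMIT.07 (0.707% ± 0.153 against 0.335% ± 0.147) and rps3 (0.283% ± 0.226 against 0.0833% ± 0.0317) were higher (SD, n = 3 each), also without overlap between the groups. Those of cox3, SPMIT.09, atp9 and SPMIT.11 overlapped. Each of the 4 shares that did not overlap had an exact two-sided permutation p of 0.1, and 0.2 after adjustment over the 8 rows. Because shares of 1 total move together, a lower share of SPMIT.01 alone makes the other shares higher.

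Per kilobase of gene, atp9 stood at 28447 ± 8014 CPM in aal1-pOE against 24297 ± 2674 in evc, cox3 at 3070 ± 916 and 2675 ± 562, rnpB at 340 ± 115 and 524 ± 136, and rps3 at 178 ± 118 and 53.9 ± 19.3 (SD, n = 3 each). In evc, rps3 was thus below trnS(uga) and trnA(ugc) per kilobase and close to trnE(uuc), and all tRNA genes were below cox3 and atp9. Counts were made with a gene, not its mature transcript, as the unit. The tRNAs are short, the RNA was purified on columns, and how much of a tRNA count comes from mature or from precursor RNA was not tested.

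The nuclear genes that serve mitochondrial gene expression were read from lists of known factors. Of 17 genes for transcription and RNA processing, 0 were called in edgeR, with a median log2 fold change of 0.57. At an unadjusted p under 0.05, 5 were higher and 2 lower in edgeR. DESeq2 called 2 up and 1 down of these, and 395 up and 511 down of all 5823 genes. The mitochondrial RNA polymerase gene rpo41 stood at 155, 236 and 192 CPM in aal1-pOE against 149, 152 and 159 CPM in evc (-0.34 ± 0.22 SE; adjusted p = 0.342, edgeR; 0.34 with library totals). The tRNase Z gene trz2, whose enzyme cuts the 3′ trailers of tRNA precursors, stood at 6.70, 68.0 and 3.10 CPM against 4.44, 7.53 and 9.47 CPM. Only aal1-pOE replicate 2 was high, and its log2 fold change went from 0.81 ± 0.82 (SE; adjusted p = 0.522, edgeR) to -0.92 without that library (adjusted p = 0.220).

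Of 4 matched genes for mitochondrial tRNA modification, 1 was called up, against 1.36% of all genes tested, with a list median of 0.83. It was ips1, which the reference annotates as an enzyme of the GidA family that modifies a uridine of tRNAs. It stood at 37.8, 72.5 and 38.7 CPM in aal1-pOE against 15.5, 14.2 and 8.69 CPM in evc (1.23 ± 0.28 SE; adjusted p = 0.0342, edgeR). Its groups did not overlap, as for 42.4% of all rows with a count that were higher by library totals. Without aal1-pOE replicate 2 ips1 was at 1.19 (adjusted p = 0.0211). It was not called without aal1-pOE replicate 1 (0.0778) or evc replicate 1, 2 or 3 (0.0558, 0.115 and 0.179). Of 13 genes listed for mitochondrial translation, 0 were called in edgeR, with a median of 0.52. At an unadjusted p under 0.05, 2 were higher and 2 lower in edgeR. DESeq2 called 2 of them down, where it called 511 of all 5823 genes down. Without aal1-pOE replicate 2 the medians were 0.25 for transcription and RNA processing and 0.05 for translation. With library totals the median of all genes was 0.80, and those of the lists for transcription and processing and for translation were 1.40 and 1.38.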

How the data were processed

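The deposited table holds whole-number read counts per gene for 6 libraries, which the authors made from ribosome-depleted, directional paired-end RNA-seq of column-purified, DNase-treated RNA. Molecular indices were moved to the read header, and no source used here says whether duplicates were removed by them. The submitters' processing notes name FastQC 0.11.2, STAR 2.6.1a, HTSeq 0.12.3, edgeR 3.46.0 and limma 3.46.0. The authors aligned to the PomBase genome, and their build was not named.

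Library totals were 5839863 to 13164975 counts. Rows with more than 1 CPM in at least 3 libraries (5823 of 6952) were scaled by TMM and tested for strain with the quasi-likelihood test of edgeR 4.0.16 in R 4.3.3, which was first tested on simulated data, with Benjamini-Hochberg adjustment over all rows tested. Sums and ratios were compared by exact two-sided permutation tests (scipy 1.17.1). Every mitochondrial row is accounted for, and of the nuclear genes those called, rpo41 and trz2 are named. The members and the lists were chosen with earlier results of these data known. A rule for mitochondrial aminoacyl-tRNA synthetases, by product name in the reference, matched 0 genes. In the other lists mtu1 and her2 found no row. The alternatives were DESeq2 1.42.0, its size factors, limma-voom (limma 3.58.1), the likelihood ratio test, library totals, scaling to mitochondrial mRNA counts, other filters, a replicate block and leaving libraries out. Replicates were labelled biological, and no more was given on their origin.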

Additional observations from a re-analysis of the deposited data

How the results depend on the processing

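The number of mitochondrial tRNA genes called up was 8 in edgeR's quasi-likelihood test, 14 in DESeq2 and 16 in the likelihood ratio test. In limma-voom it was 0 (17 at an unadjusted p under 0.05). These fits called 79, 395, 397 and 19 of all 5823 genes up. With a filter of 10 CPM it was 2 of 2 tested, beside 107 of 4316 genes called up. When scaled to mitochondrial mRNA the number was 1, beside 40 of 5823 genes. When so scaled without a filter the number was 5, beside 91 of 6684 rows. With libraries left out, with or without the filter, it ranged from 0 to 9. It was 10 without aal1-pOE replicate 2 when also scaled to mitochondrial mRNA. The fit with 9 called 211 of 5760 genes up, and the fit with 10 called 877 of 5699 up. The median stayed above 0 in every setting run. The count of mRNA rows and rnpB called down went from 0 to 1 in DESeq2, the likelihood ratio test and the fit with a replicate block. These called 511, 472 and 383 of all 5823 genes down. With libraries left out it ranged from 0 to 3, and the fit with 3 called 1131 of 5604 genes down. The count called up was 0 except when scaled to mitochondrial mRNA without aal1-pOE replicate 2 (2), so that it ranged from 0 to 2 with libraries left out. Of the nuclear genes for mitochondrial gene expression, 1 was called up and 0 down, in a fit that called 79 up and 270 down of all 5823 genes. Those called up were 4 in DESeq2 and in the likelihood ratio test, which called 395 and 397 of all 5823 genes up. With library totals and with the replicate block 2 were called up, beside 517 and 247 of all genes. In limma-voom and when scaled to mitochondrial mRNA 0 were, beside 19 and 40 of all genes. With libraries left out those called up ranged from 0 to 6, and the fit with 6 called 1085 of 5604 genes up. Those called down were 3 in DESeq2 and in the likelihood ratio test, which called 511 and 472 of all 5823 genes down. With DESeq2's size factors and with the 10 CPM filter 1 was, beside 277 of 5823 and 292 of 4316 genes. With libraries left out those called down ranged from 0 to 7, and the fit with 7 called 1131 of 5604 genes down.

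The fitted log2 fold change turned positive with library totals and when scaled to mitochondrial mRNA for SPMIT.04 (0.20 and 0.15), SPMIT.05 (0.56 and 0.53), SPMIT.09 (0.18 and 0.22), SPMIT.10 (0.23 and 0.17), SPMIT.11 (0.22 and 0.18) and SPMITTRNAMET.01 (0.71 and 0.73). These settings shift the median of all genes from 0.08 to 0.80 and 0.81. With libraries left out and the filter kept, the value ranged from -0.32 to 0.09 for SPMIT.05, from -0.55 to 0.07 for SPMIT.10, from -0.68 to 0.16 for SPMIT.11 and from -0.25 to 0.21 for SPMITTRNAMET.01. With aal1-pOE replicate 2 and evc replicate 1 both left out, SPMIT.05 and SPMIT.10 were at 0.090 and 0.069. The ratio of the share on mRNA rows and rnpB was 1.03 with library totals, 0.647 with TMM and 0.933 to 1.125 with 1 library left out, and 1.21 with aal1-pOE replicate 2 and evc replicate 1 both left out. Beyond the scaling, the cause of these changes was not tested.

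Samples with the same replicate number did not deviate together (r = 0.033, 0.0097 and 0.0065), so the numbers were not taken as pairs. With the number as a replicate block, 12 of 19 tRNA genes were called up, rnpB was called down (-1.32, adjusted p = 0.0132, edgeR), and over all genes 247 were called up and 383 down against 79 and 270 without it. Depth limits most single tRNA genes, whose median was 4 counts per evc library.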
